A study of Mus musculus with 2 samples.

Results

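The apolipoproteins are the protein parts of the particles that carry triglyceride and cholesterol in blood. The set described here was named by gene symbol: Apoa1, Apoa2, Apoa4, Apob, Apoc1, Apoc2, Apoc3, Apoc4, Apoe and Apoh. A gene entered if the array's annotation gave it a probe set that names this 1 gene, and 9 of the 10 did, with 11 probe sets, out of 8251 genes with 10833 probe sets. Apoc3 had no such probe set and was not analysed here. Both samples were total RNA of mouse liver bought from a commercial supplier under the same catalogue item, each hybridised to 1 single-colour Affymetrix array. Their titles say liver and their source field says spleen, so the group was taken from the titles. The labels give no strain, sex, age, treatment, lot or number of animals, and the 2 arrays form a single group, so the design allows a description of levels and of their spread over these arrays, which may be technical, and no test between groups.

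Hepatocytes make most plasma apolipoproteins and load them onto particles in the secretory pathway, and the small intestine is the other main source of several of them. Apob stays with its particle for life, whereas the smaller apolipoproteins of the A, C and E classes move between particles in plasma, where they switch lipases on or off, activate the enzyme that esterifies cholesterol and bind receptors that clear the particle. Macrophages also make Apoe and C-class apolipoproteins. In RNA of a whole organ, fewer cells of a type and less RNA per cell cannot be told apart.

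The values are signal intensities on a linear scale. The arrays had median signals of 163.2 and 157.6 and equal trimmed means. A background threshold was placed at the 95th percentile of 95 measured genes typical of nerve, germ, eye and muscle cells, at 482.7 on replicate 1 and 478.8 on replicate 2. On both arrays 29.5% of all named genes were above it, as were all 18 measured hepatocyte markers. Of the 20 lymphocyte and spleen markers 1 was, the kinase Zap70 (834.3 and 880.5), in a set of suffix s. Its plain set (427.1 and 459.0) and its set of suffix r (188.5 and 123.4) were below it. The T cell co-receptor gene Cd4 (337.3 and 503.0) was above the threshold on replicate 2 alone, and Cd79a of the B cell receptor (450.3 and 333.4), Cd3e of the T cell receptor (56.0 and 51.5) and Cd8a, the lowest of the list (22.2 and 15.4), were below it on both. Arrays give no count depth, and with 2 of them the errors given are rough. Probe brightness depends on probe sequence, so the order of genes below is an order of signals on this array and not of transcript amounts.

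All 9 measured apolipoproteins were above the threshold on both arrays, where 29.5% of all named genes were. The dimmest of them, Apob, was still 12.1 times the threshold on replicate 1 and 12.3 times on replicate 2. Their median percentile among all named genes was 99.4, and the lowest was 96.9. Together the 9 probe sets that represent these genes held 2.41% of the summed signal of the array on replicate 1 and 2.64% on replicate 2, although they make up 0.0725% of its non-control probe sets. Apoe and Apoa1 alone gave 49.3% of that apolipoprotein signal on replicate 1 and 51.1% on replicate 2. Apolipoproteins were among the best known liver products when the set was named, so its place at the bright end describes these arrays and is no independent evidence of their tissue.

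**Figure D1:**
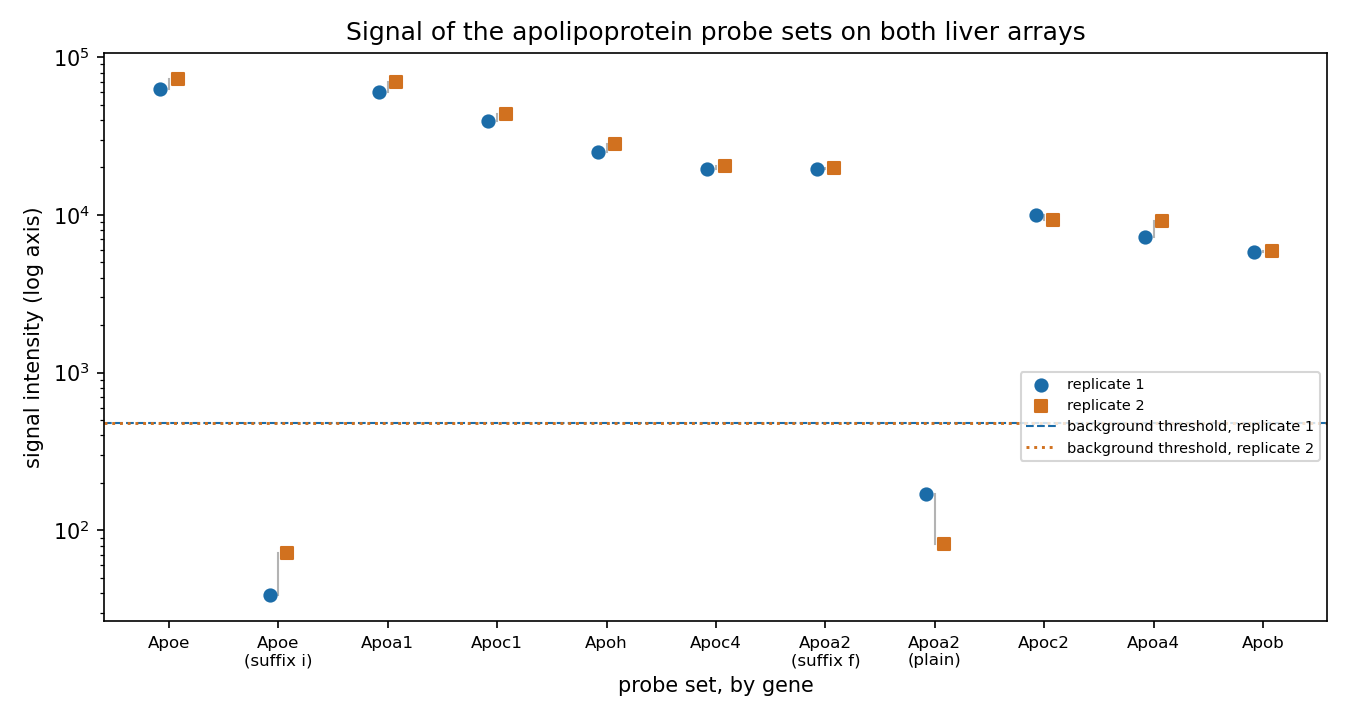
Signal intensity (log axis) of all 11 apolipoprotein probe sets on replicate 1 (circles) and replicate 2 (squares), ordered by gene from the brightest to the dimmest, with the background threshold of each array as a broken line. Of the 11 sets 9 lie above the threshold, between 5853 and 72958.5, and the second sets of Apoe and Apoa2 lie below it on both arrays.

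Apob is the non-exchangeable scaffold of very-low-density lipoproteins and chylomicrons, with a single copy on each particle. Its signal came to 5853 on replicate 1 and 5891 on replicate 2, or 5872 ± 26.9 (SD, n = 2 arrays). This was the dimmest of the 9 genes and also the one whose arrays lay closest together, with an SD of 0.459% of the mean. In mouse liver part of the Apob message is edited to encode a shorter protein, and a single probe set gives no account of the edited and unedited forms.

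Apoa1 is the main protein of high-density lipoproteins and the activator of the cholesterol-esterifying enzyme Lcat. Its signal was 60573 on replicate 1 and 69535 on replicate 2 (65054 ± 6337), ranks 4 and 2 among all named genes. Apoa2, the next most plentiful protein of high-density lipoproteins, was read from a probe set of suffix f, a mark for probes that may match several members of a sequence family, at 19482 and 19735 (19608.5 ± 178.8). Its other set, a plain one, gave 170.7 on replicate 1 and 81.5 on replicate 2, below the threshold on both. The sets of Apoa2 therefore disagree, and its place among the bright genes rests on the suffixed set.

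The stretches of DNA around the starts of 4 of these genes are shown because all 4 hold a short sequence to which the liver factors of the FOXA family bind. They run from 250 bases before to 50 after a start site, were taken from RefSeq (GRCm38.p6) and are printed 5′ to 3′ in the direction of the gene. Capitals mark every match to the motifs searched on both strands: TGTTTAC or TGTTTGC for FOXA, AGGTCA for a nuclear receptor half-site, TATAAA for a TATA box, TGGACTTTG for HNF4, and CACGTG, an E-box of USF and SREBP.
Apob, chr12:7977427-7977726, plus strand: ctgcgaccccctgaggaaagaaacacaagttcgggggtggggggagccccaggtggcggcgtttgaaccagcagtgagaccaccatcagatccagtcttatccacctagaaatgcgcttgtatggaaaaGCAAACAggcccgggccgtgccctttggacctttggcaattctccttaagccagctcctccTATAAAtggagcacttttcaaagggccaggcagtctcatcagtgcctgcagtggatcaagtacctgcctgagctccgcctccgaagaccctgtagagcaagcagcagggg
Apoa1, chr9:46228380-46228679, plus strand: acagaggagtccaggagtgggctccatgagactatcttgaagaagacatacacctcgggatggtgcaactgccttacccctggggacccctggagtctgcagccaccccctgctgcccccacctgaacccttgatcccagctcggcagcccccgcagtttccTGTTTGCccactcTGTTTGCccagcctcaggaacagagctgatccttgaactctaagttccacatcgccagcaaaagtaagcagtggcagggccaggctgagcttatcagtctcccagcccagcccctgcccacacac
Apoa2, chr1:171224804-171225103, plus strand: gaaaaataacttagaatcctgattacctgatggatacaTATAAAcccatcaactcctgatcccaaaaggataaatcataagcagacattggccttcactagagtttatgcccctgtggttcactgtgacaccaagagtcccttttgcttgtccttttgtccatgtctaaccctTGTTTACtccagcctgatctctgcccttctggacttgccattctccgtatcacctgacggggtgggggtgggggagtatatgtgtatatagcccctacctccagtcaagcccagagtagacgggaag
Apoh, chr11:108395047-108395346, plus strand: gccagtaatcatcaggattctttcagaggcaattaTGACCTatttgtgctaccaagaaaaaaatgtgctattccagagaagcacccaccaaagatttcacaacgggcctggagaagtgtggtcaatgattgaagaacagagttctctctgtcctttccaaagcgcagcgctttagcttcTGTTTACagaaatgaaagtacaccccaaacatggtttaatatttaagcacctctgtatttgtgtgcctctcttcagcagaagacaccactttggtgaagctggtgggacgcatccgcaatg

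The table of start regions held 11 entries for 8 of the 9 measured genes. A FOXA core stood in 5 of the 11, against 8.48% of all 32851 start regions in the table, and these 5 belonged to Apoa1, Apoa2, Apob, Apoe and Apoh. Apoa1 held TGTTTGC at both -88 and -75, and Apob held it on the other strand at -121, where positions count from the start site and name the first base. Apoa2 held TGTTTAC at -77, in the printed one of its 2 listed start regions, and Apoh at -71. In Apoe the match lay at -5 on the other strand of 1 of its 3 listed start regions. The half-site AGGTCA was found in 4 of the 11, in 1 start region each of Apoa2, Apoc2, Apoc4 and Apoh, against 16.3% of all start regions. In Apoa2 it lay in the start region that is not printed. TATAAA was found in 3 of the 11 start regions, 1 each of Apob, Apoa2 and Apoe, against 13.6% of all. It lay at -60 in Apob, at -212 in Apoa2, and at -96 and, on the other strand, -100 in Apoe. The pair of matches in Apoe overlapped each other and lay in another of its start regions than the FOXA match. TGGACTTTG, present in 0.475% of all start regions, and CACGTG, in 7.15%, were found in 0 of the 11. The motifs were chosen after these sequences had been seen, matches are letters and not shown to be sites, and their part in the signals was not tested.

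Apoe, the ligand through which remnant particles bind their receptors on liver cells, was the brightest of the 9. It gave 62573 on replicate 1 and 72958.5 on replicate 2 (67766 ± 7343), ranks 2 and 1 among all named genes. A second Apoe set, of suffix i, which marks an incomplete set of probes, gave 38.7 and 71.6 and was below the threshold on both arrays. Apoe was brighter than Apoa1 on each array, but their signals overlapped between the arrays, and 2 arrays leave this order uncertain. Macrophages are a known second source of Apoe. Of the 15 measured macrophage markers 9 were above background on both arrays, against 29.5% of all named genes. The summed signal of the 15 was 15573 on replicate 1 and 15665 on replicate 2. It was led by the complement components C1qc (2541 and 2986) and C1qa (2542 and 2387) and the Kupffer cell lectin Clec4f (2408 and 2615), with the scavenger receptor Marco lowest at 23.6 and 18.8. Mrc1 (287.2 and 257.3), Adgre1 (192.7 and 251.7), Fcgr1 (229.9 and 162.3) and Itgam (18.9 and 87.7) were also below the threshold on both arrays. Cd68 (529.0 and 463.3) was above it on replicate 1 alone. The part of macrophages in the Apoe signal was not tested.

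In the RefSeq annotation (GRCm38.p6), Apoe lies in a row with Apoc1, Apoc4 and Apoc2 with no other protein-coding gene between them. Apoc1, a small protein that inhibits lipoprotein lipase and slows particle uptake, gave 39619.5 on replicate 1 and 43394 on replicate 2 (41507 ± 2669). Apoc4, whose overexpression raises plasma triglyceride in mice, gave 19423 and 20388 (19905 ± 682.1). Apoc2, the cofactor that lipoprotein lipase needs, gave 10057.5 and 9256 (9657 ± 567.0). All 4 genes of this row were above the 98th percentile, as Apoc2, the lowest, stood at 98.27. Among the 9 genes, each read from its brightest set with the deposited scaling, Apoc2 alone had the higher signal on replicate 1.

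The other row of apolipoprotein genes in that annotation holds Apoa1, Apoc3, Apoa4 and Apoa5. Apoa4, which the intestine of both mouse and human secretes and mouse liver also makes, gave 7222 on replicate 1 and 9179 on replicate 2 (8200 ± 1384). Its arrays lay furthest apart among the 9 genes, with an SD of 16.9% of the mean and a ratio of 1.27. Apoa5, an activator of plasma triglyceride breakdown that is not among the 10 named genes, gave 17704 and 18403 in its brightest set, and its other sets gave 14289 and 14880, and 6267 and 6781. All 3 Apoa5 sets were thus well above the threshold, unlike the sets of Apoe and Apoa2. Of the 12 measured markers of gut epithelium, the other source of Apoa1, Apoa4 and Apob, 2 were above background on both arrays, against 29.5% of all named genes. These were Anpep (1971 and 1998) and Fabp2 (1760 and 1592), and their part in the apolipoprotein signals was not tested. The rest of that list included Tff3 (228.4 and 97.6), Cdx1 (15.8 and 117.7), Cdx2 (14.0 and 62.3), Lct (69.8 and 66.3) and Vil1 (4.6 and 4.7), all below it.

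Apoh, or beta-2-glycoprotein I, binds negatively charged phospholipid and differs in build from the A, C and E classes, being made of repeated domains of the complement control type. Its signal was 25004 on replicate 1 and 28292 on replicate 2 (26648 ± 2325). It stood between Apoc1 and the pair of Apoc4 and Apoa2 on both arrays. The signals of Apoc4 and Apoa2 overlapped, and theirs was the single change of order among the 9 between the arrays, with Apoa2 ahead on replicate 1 and Apoc4 on replicate 2. The signals of the other neighbours in the order, apart from Apoe and Apoa1, did not overlap between the arrays, the narrowest gap being that between Apoc2 on replicate 2 (9256) and Apoa4 on replicate 2 (9179).

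None of the 9 apolipoproteins differed over 2-fold between the arrays, where 14% of all named genes did; in the brightest 5% of genes, where all 9 lie, 0% did. The SD of an apolipoprotein over the 2 arrays had a median of 6.43% of the mean, against 3.99% in the brightest 5% of genes. As log2 ratios of replicate 1 over replicate 2, the 9 ran from -0.35 (Apoa4) to 0.12 (Apoc2), with a median of -0.13. The median was 0.02 over all named genes, -0.05 over the brightest 5% and -0.08 over the brightest 1%. Replicate 2 gave the higher signal in 47.4% of all named genes and in 52.5% of those above background. At the bright end it did so more often, in 68.4% of the brightest 5%, in 80.5% of the brightest 1%, and in 8 of the 9 apolipoproteins. With 1 array on each side there is no test of these differences.

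**Figure D2:**
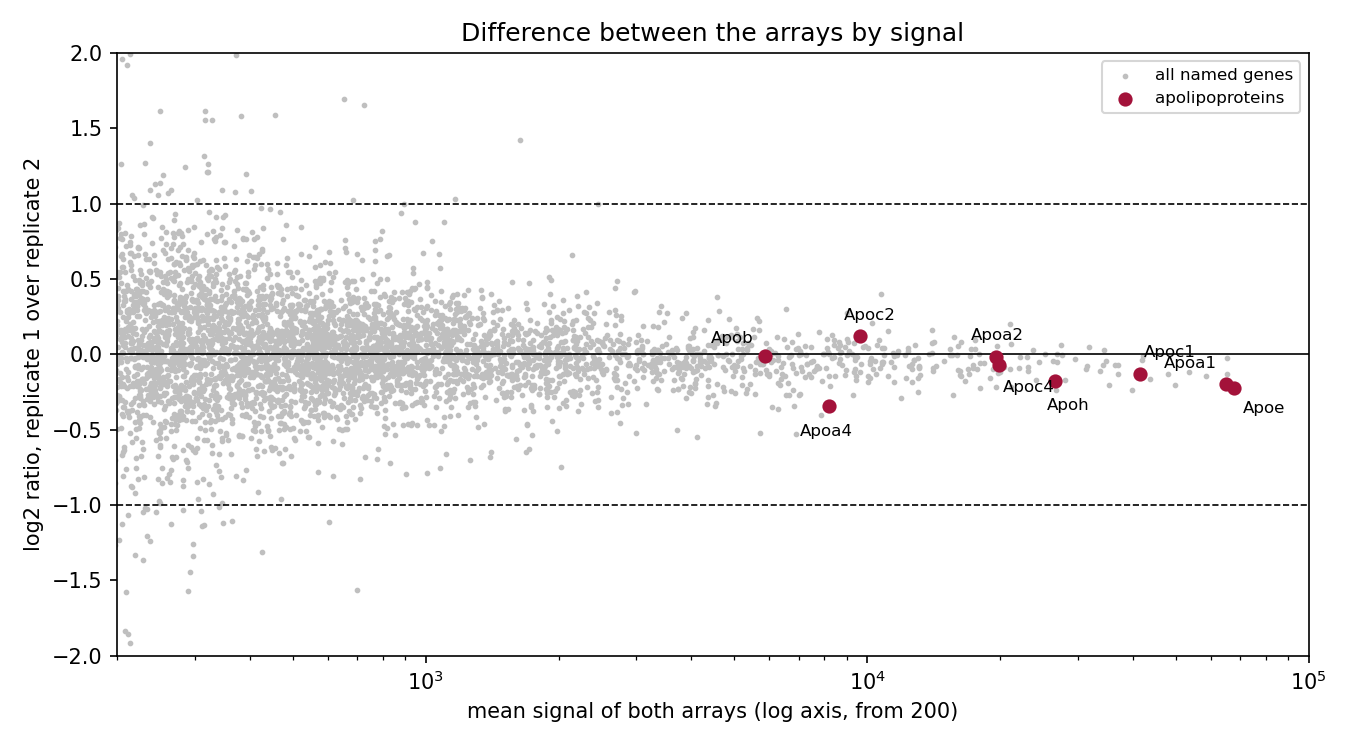
Log2 ratio of replicate 1 over replicate 2 against the mean signal of both arrays (log axis), for all named genes (grey) and the 9 apolipoproteins (red), with broken lines at 2-fold; genes under a mean signal of 200 or beyond a log2 ratio of 2 either way are not drawn. The spread narrows as signal rises, and the cloud bends below 0 at its bright end, where the 9 apolipoproteins lie between -0.35 and 0.12.

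These differences depended in part on the scaling of the arrays. After quantile normalization, which gives both arrays the same distribution of signals, the median log2 ratio of the 9 genes was -0.05 and 6 of the 9 were higher on replicate 2. The ratio of Apoe became -0.06, against -0.22 with the deposited scaling, and that of Apoa1 -0.06, against -0.20. Apoa2 and Apob turned to 0.04 each, against -0.02 and -0.01. Apoa4 stayed apart, at -0.30 against -0.35, as did Apoc2 on the other side, at 0.14 against 0.12.

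**Figure D3:**
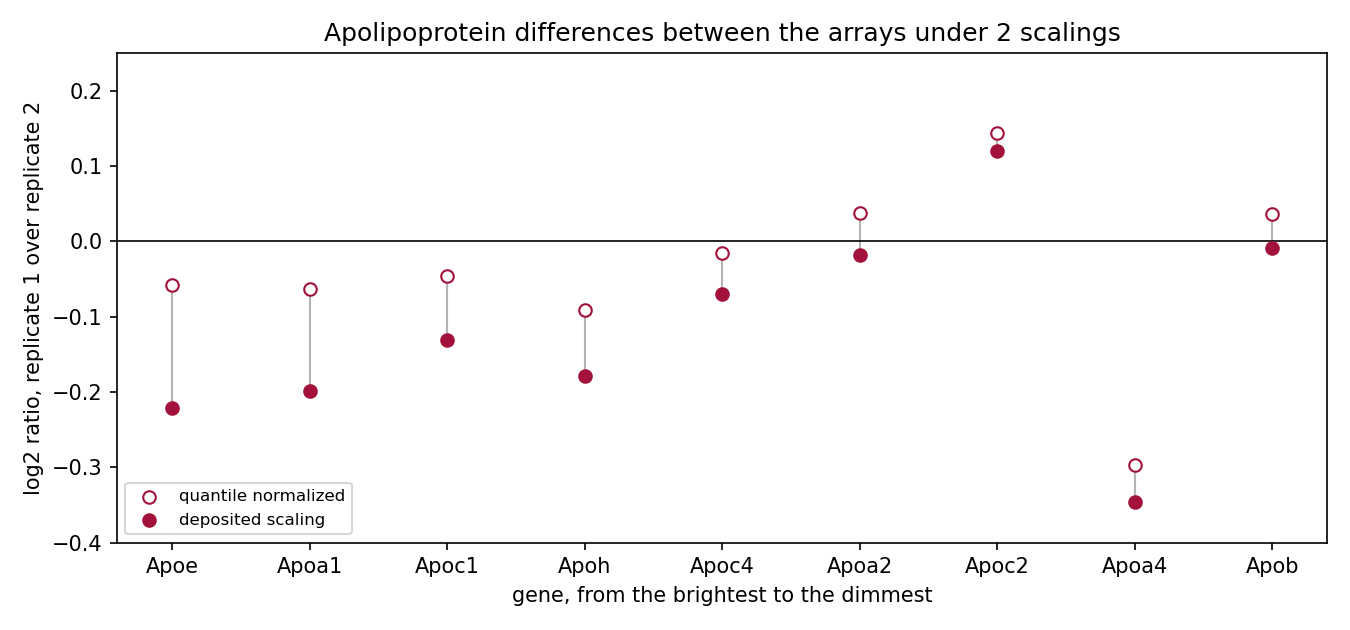
Log2 ratio of replicate 1 over replicate 2 for each apolipoprotein, after quantile normalization (open) and with the deposited scaling (filled), from the brightest gene to the dimmest. Quantile normalization gives Apoe a ratio of -0.06 against -0.22 with the deposited scaling and leaves Apoa4 lowest at -0.30 and Apoc2 highest at 0.14.

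The partners of the apolipoproteins were examined in 5 lists, of which 70 genes were measured, and 50 of the 70 were above background on both arrays against 29.5% of all named genes. With the threshold at the 99th percentile of the background genes, the count was 33 of 70, against 16.0% of all named genes. The first list held other apolipoproteins and proteins carried on lipoproteins, and 9 of its 11 genes passed the threshold on both arrays (median percentile 95.9). Its highest were Apoa5, the paraoxonase Pon1 of high-density lipoproteins (16912 and 17779) and clusterin, Clu (12326 and 13751), and Apom, a carrier of sphingosine 1-phosphate, gave 4866 and 5117. The second set of Apom, of suffix r, a mark for sets in which some probe selection rules were dropped, gave 36.6 and 54.0. The lowest was Apod, at 8.0 and 16.4, a lipocalin made mainly outside the liver.

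Of 12 genes of particle assembly, export and mRNA editing, 9 were above background, led by the GTPase Arf1 (9226 and 10022), the chaperone Hspa5 (5153 and 5021) and the cargo receptor subunit Mcfd2 (3660 and 4262). Mttp, the microsomal transfer protein that loads lipid onto Apob, was the lowest of the list at 297.0 on replicate 1 and 265.1 on replicate 2 and was not above background on either array, from a single probe set. Apobec1, the deaminase that edits the Apob message, gave 517.2 and 508.2, just above the threshold on both. Its single set has suffix s, a mark for probes shared by similar transcripts. P4hb, the other subunit of the microsomal transfer complex, gave 1892 and 1859 in a set of suffix r and 208.2 and 133.7 in its plain set.

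Of 6 measured lipase and lipid transfer genes, 5 were above background. Lcat, the enzyme that Apoa1 activates, was the brightest at 10758 on replicate 1 and 10303 on replicate 2, with a second set of suffix r at 56.5 and 96.0. The lysosomal lipase Lipa gave 1763 and 2044, and the lipase inhibitor Angptl4 1759 and 1910 in its brightest of 4 sets, while its plain set gave 178.4 and 152.6. The phospholipid transfer protein Pltp gave 1057 and 989.1. Lpl, the lipase that Apoc2 activates and that muscle and fat make, gave 129.1 and 106.5 and was below the threshold.

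Of 14 measured receptors and exporters, 9 were above background, and 4 with the threshold at the 99th percentile. The brightest were Scarb1, the receptor for high-density lipoproteins (5387 and 5281), the lipolysis-stimulated receptor Lsr (4358 and 4429) and Lrp1, a receptor that takes up remnants through Apoe (3975 and 4075). The Lsr set of suffix f gave 64.9 and 47.5. The exporter Abca1, which loads cholesterol onto Apoa1, gave 862.8 and 895.4, and its other plain set gave 451.4 and 438.3, below the threshold on both arrays. The very-low-density lipoprotein receptor Vldlr was lowest, at 55.5 and 74.2.

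Of 27 measured transcription factors known to act on apolipoprotein genes, 18 were above background, and 9 with the threshold at the 99th percentile. Cebpa (9564 and 10542), Cebpb (5489 and 5971) and Srebf1 (3286 and 3407) were highest, and Nr2f1 lowest at 20.3 and 3.8. Hnf4a, a nuclear receptor that acts on many apolipoprotein promoters, gave 1454 on replicate 1 and 1602 on replicate 2. Foxa3 gave 1021 and 798.5, Foxa2 722.8 and 645.5, and Foxa1, below the threshold, 233.5 and 257.0. These values stand beside the FOXA cores above as a description. Of the other nuclear receptors fixed for naming, Ppara gave 1601 and 1211 and Rxra 875.4 and 1209, with a second Rxra set at 785.9 and 765.2. Of the 50 partner genes above background, Usf1 differed over 2-fold, at 1565 and 764.9, and its second set gave 371.6 and 476.6.

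**Figure D4:**
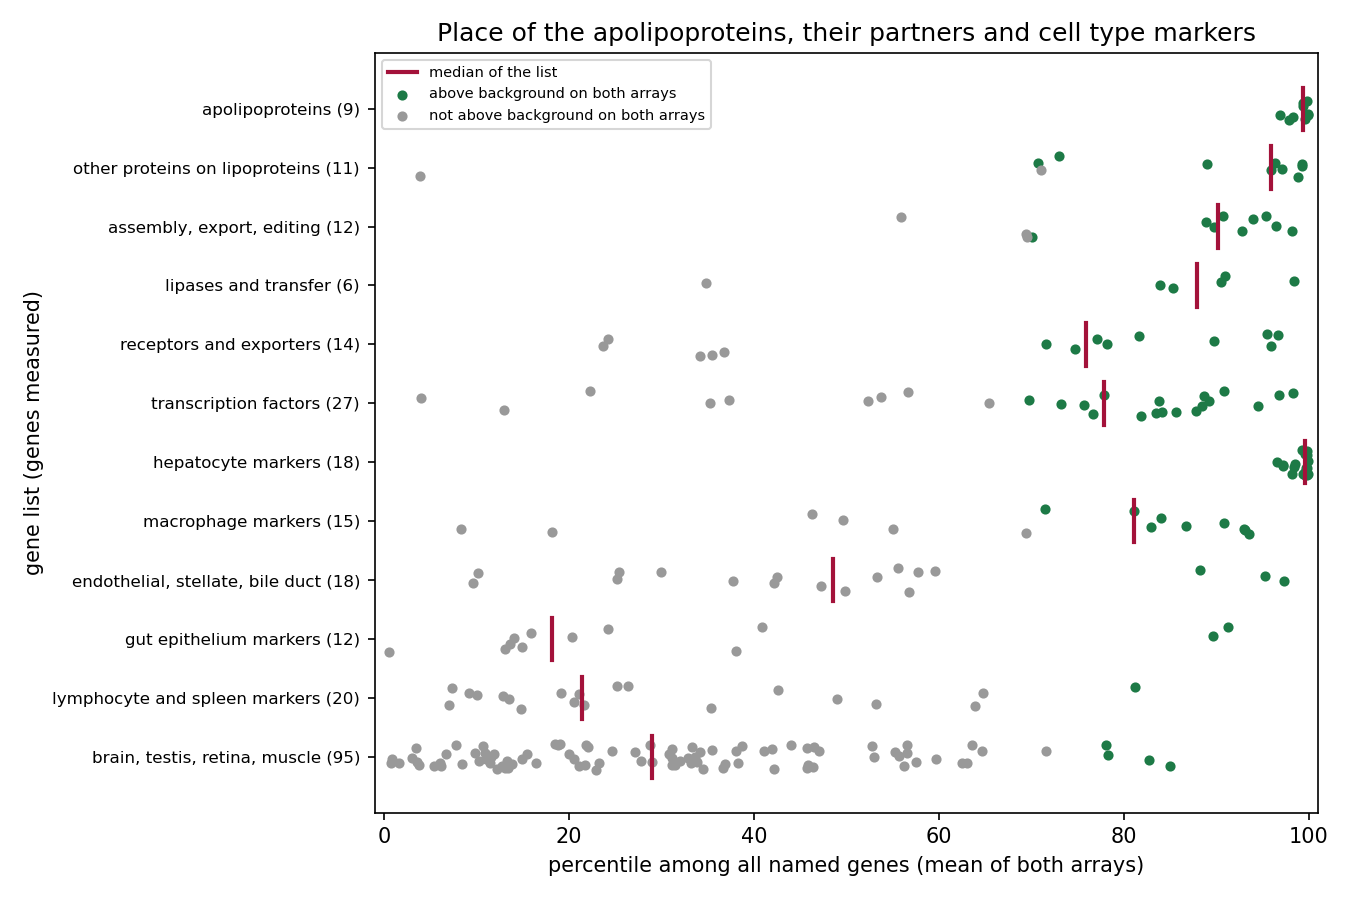
Percentile of each gene among all named genes (mean of both arrays), with the number of genes measured in brackets. Drawn are the apolipoproteins, the 5 partner lists, the background genes, and the marker lists other than that of pancreas and adipocyte. Genes above background on both arrays are green, others grey, and the median of each list is a red bar. The apolipoproteins (median 99.4) and the hepatocyte markers (99.6) lie at the bright end. The partner lists have medians between 75.9 and 95.9, and gut and lymphocyte markers have medians of 18.1 and 21.4. Of the pancreas and adipocyte markers, not drawn, the highest is Ctrb1 at percentile 99.5.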

How the data were processed

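The deposited table holds 1 signal intensity per Affymetrix probe set and array, on a linear scale, as judged from the values; what the authors did to make it (scaling, summary, software, detection calls) is not given in the sources used here. Background correction could therefore not be repeated. Of 12488 probe sets, 66 controls were left out. Before that step the platform annotation named 1 gene for 10855 sets, of which 10839 matched RefSeq GRCm38.p6 by gene identifier and 0 symbols changed. The sets analysed were 10833. Where a gene had several sets, the brightest over both arrays (on the log2 scale) stood for it. Of the 12488 values, 16 were identical between the arrays. With 1 group, no test was run; ratios are log2 of replicate 1 over replicate 2, and over 2-fold was called.

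The named genes were all apolipoproteins with every probe set, the 3 highest and the lowest of the lists described gene by gene, and fixed partner genes where measured. Foxa1, Foxa2, Foxa3, P4hb, Abca1, Usf1, Cd3e, Cd68, Mrc1, Adgre1, Fcgr1, Itgam, Cdx1, Cdx2, Lct, Lep, Ins2, Gcg, Sst, Fabp4 and Adipoq were named after their values were seen. The members and lists were chosen with earlier results of these data known. Of the other marker lists, 3 of 18 endothelial, stellate and bile duct genes were above background (Dcn, Eng and Col1a2), against 29.5% of all named genes. Col1a2 was read from a set of suffix r, and its plain set gave 277.8 and 204.6, below the threshold. Pancreas and adipocyte markers are described at the end. The steps were tested on simulated data with less noise between arrays than dim genes had here. That test therefore gives no error rate for the 2-fold call on these arrays. Python 3.11.15 was used with matplotlib 3.10.9, pandas 2.3.3 and numpy 2.4.6. Alternatives were quantile normalization, centring, log2(value + 32), averaged probe sets per gene, no suffixed sets, thresholds at the 90th and 99th percentile, and each array alone.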

Additional observations from a re-analysis of the deposited data

How the results depend on the processing

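All 9 apolipoproteins stayed above background with thresholds at the 90th and 99th percentile, with probe sets averaged per gene and on each array alone. Without suffixed probe sets 8 did, as Apoa2 was then read at 170.7 and 81.5. The median percentile was 99.41 to 99.42 with either array alone, 98.6 with the mean of probe sets and 98.0 among genes above background. The mean of probe sets put Apoe at percentile 92.7 and Apoa2 at 91.1. The partner count was 51 to 52 with either array alone and 33 at the 99th percentile. The median log2 ratio ran from -0.14 (centred) to -0.05 (quantile normalization). With members of a single probe set, an alternative chosen after seeing the data, the median ratio stayed at -0.13 and 6 of 7 were higher on replicate 2. The log2 ratio of Apoa2 was 1.07 without suffixed sets and 0.52 with the mean of sets. The ratio of Apoe was -0.55 with the mean of sets. Calls close to the threshold, such as that of Apobec1, are uncertain. No paired analysis was possible because there is 1 group.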

Other observations

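Genes of the exocrine pancreas were bright in this RNA beside the apolipoproteins. Of the pancreas and adipocyte markers, 4 of 10 were above background on both arrays, against 29.5% of all named genes. These 4 were chymotrypsinogen Ctrb1 (22100 on replicate 1 and 22327 on replicate 2), trypsinogen Prss2 (8217 and 8127), elastase Cela1 (4794 and 5091) and leptin, Lep (1160 and 854.4). Lep gave 123.7 and 122.8 in its other set. The list's other measured adipocyte genes were below the threshold on both arrays. They were Fabp4 (179.4 and 168.4), Adipoq (130.8 and 120.7) and Retn, the lowest of the list (21.2 and 23.8). Ctrb1 was read from a set of suffix r and Prss2 from one of suffix f, and Cela1 from a plain set.

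A longer list of exocrine pancreas genes, chosen after these values were seen, had 15 measured members. Against 29.5% of all named genes, 12 of the 15 were above background on both arrays. They included bile salt-dependent lipase Cel (4192 and 3867), the lipase cofactor colipase, Clps (3701 and 3051), the regenerating protein Reg1 (1766 and 1715), the zymogen granule proteins Zg16 (1462 and 1238) and Sycn (1139 and 1356), and the ribonuclease Rnase1 (908.4 and 1010), each from a plain set. Pnliprp2 (151.9 and 209.7), Spink1 (16.8 and 51.7) and Cuzd1 (18.5 and 11.6) were not. The other set of Reg1, of suffix f, gave 90.8 and 41.6. The islet hormone genes Ins2 (189.3 and 206.8), Gcg (51.6 and 32.8) and Sst (57.1 and 121.9) were below the threshold. Their part in the apolipoprotein signals was not tested.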
